A study of Arabidopsis thaliana with 34 samples.

Results

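The shoots of untreated Arabidopsis thaliana plants were compared 2 h after the start of the experiment and at its start (0 h). All plants were of the Landsberg background, 16 d old, and grown on agar plates with 1% sucrose under 10 h of light and 14 h of dark. They belonged to 3 lines. WT was the wild type, C13 (line 1:3) made Vitreoscilla haemoglobin (VHb), a bacterial oxygen-binding protein, in the cytosol, and Mt62 (line 6:2) made VHb in mitochondria, so that each transgenic construct is represented by 1 line. The labels name no promoter for the transgene and no hour of day for any harvest. Groups treated for 2 h, with 4% O2 (hypoxia) or with 500 µM DETA, a donor of nitric oxide, enter only as the link between both controls. RNA was hybridised to Agilent arrays with 3 dyes per field, on 7 slides. Per the sample descriptions each control group had 4 array channels, except the 0 h control of Mt62 with 3.

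The authors' deposited table gives log fold changes between groups, taken here as log2, and no level of any gene in any group. The change of the controls was therefore computed per table row as the value of a treatment against the 0 h control less the value of the same treatment against the 2 h control, where both were listed. In CCA1, for example, hypoxic WT plants stood at -0.66 against the 0 h control and at 2.94 against the 2 h control in the authors' deposited table, and the controls thus differed by -3.60. Such a value could be had for 5705 of 24530 measured genes in at least 1 line: 3568 in WT, 3895 in C13 and 3616 in Mt62. Of these, 1994 had a value in all 3 lines, 1386 in 2 lines and 2325 in 1. Hypoxia and DETA gave the same difference where both were listed, to within 1.0e-09, so they are not independent measurements.

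The circadian clock of plants is a loop of transcription factors that repress each other in turn through the day. CCA1 and LHY are MYB proteins that peak around dawn, the PSEUDO-RESPONSE REGULATORS (PRR) follow through the day, and ELF3, ELF4 and LUX form the evening complex that acts at dusk and in the night. In leaves the clock times, among others, genes of starch breakdown, growth, cold response and light signalling, and light itself acts on many of the same genes.

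The authors set every value with a p above 0.01 to null. A row's difference between the controls was called where it was at least as large, for its channel numbers, as the smallest value the authors listed in that row. Dividing that smallest value by the normal quantile for a two-sided p of 0.01 gives an upper limit for the standard error, printed below as "SE at most", since no replicate values are in the table. The median of this limit was 0.20 in WT, 0.19 in C13 and 0.21 in Mt62. On the deposited columns themselves, 0.607% of 10550 values that the authors had not listed would have been called by this rule, and 93% of 9387 listed values were recovered when recomputed from the other columns.

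The choice of rows shapes the counts. A gene whose treated plants moved along with the controls has no value. A gene whose treated plants lay between both controls, with both differences listed, had to be called, because 2 listed differences then add up. Counts of such genes here and below rest only on treatments with both differences listed. Of the genes called higher at 2 h, 182 of 341 in WT, 95 of 294 in C13 and 166 of 302 in Mt62 were of this kind, as were 99 of 323, 119 of 336 and 107 of 324 of those called lower. Counts of called members are therefore descriptions, and the share of a list that was called supports nothing by itself.

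In WT, 341 genes were called higher at 2 h than at 0 h (9.56% of the 3568 with a value) and 323 lower (9.05%). In C13 there were 294 higher (7.55%) and 336 lower (8.63%), and in Mt62 302 higher (8.35%) and 324 lower (8.96%). The shares were lower among genes whose treated plants did not lie between the controls in any listed pair. For WT 4.84% were higher and 6.81% lower, for C13 5.41% and 5.9%, and for Mt62 4.07% and 6.49%. The median over all genes with a value was near 0 in each line (-0.01, 0.00 and -0.02). The values ran from -4.14 to 4.92 in WT, from -3.84 to 5.22 in C13 and from -4.16 to 5.59 in Mt62.

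The lines shared no plants, so their changes can be set against each other. Of 1994 genes with a value in all 3 lines, 79 were called higher in each (3.96%), 93 were called lower in each (4.66%) and 1446 were called in none. In 46 of the 79 and 35 of the 93 treated plants lay between the controls in all 3 lines, which fixes the calls. This was so in no line for 22 and 49 of them. The shares below also include calls fixed in this way. Of the genes called in WT and measured in Mt62, 68.8% were called the same way in Mt62, and 76.6% of those called in Mt62 were called the same way in WT. For WT and C13 the shares were 57.6% and 55.8%, and for C13 and Mt62 60.3% and 69%. Across genes, which are not independent replicates, Pearson's r was 0.92 between WT and Mt62 (2447 genes), 0.85 between C13 and Mt62 (2555 genes) and 0.75 between WT and C13 (2366 genes). Opposite calls were made for 3 genes, PRODH1, MES16 and AT4G29950, each lower in WT and higher in C13.

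The layout of the slides differed between the lines. The 0 h and 2 h controls of both WT and C13 had 1 slide in common. Those of Mt62 also had 1 in common, but its 2 h controls were on the same 4 slides as the 0 h controls of WT and C13, and its 0 h controls lay on 2 of the 4 slides that held the 2 h controls of those lines. Without values per channel, no fit with slide as a term could be made, and the part of the slides in the result was not tested.

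**Figure D1:**
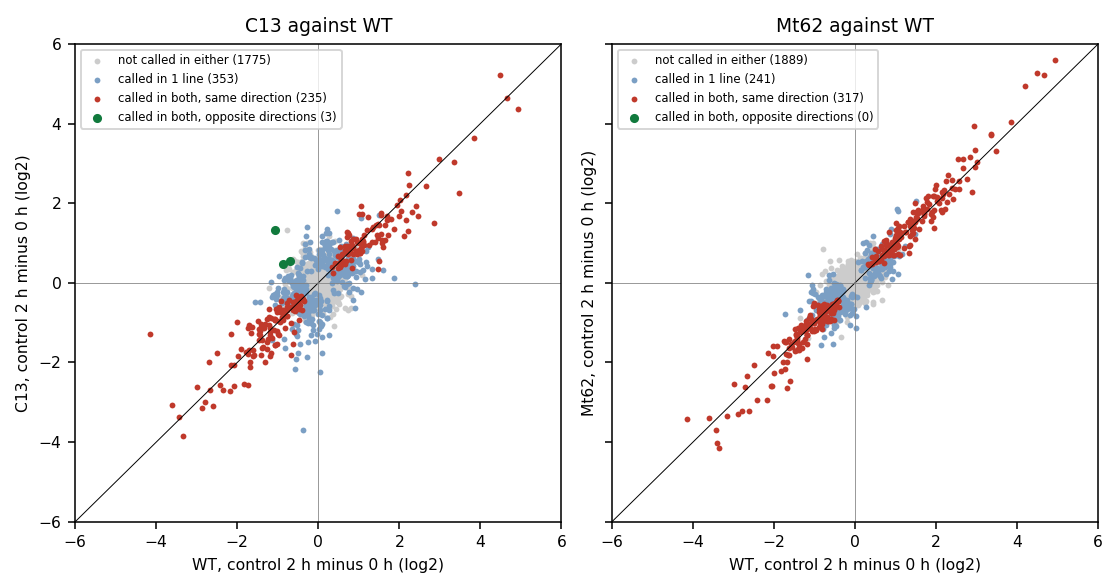
Change of untreated plants from 0 h to 2 h (log2), C13 on the left and Mt62 on the right, each against WT, 1 point per gene with a value in both lines. Colours give the calls, with the number of genes in the key, and the diagonal marks equal change. The 317 genes called alike in WT and Mt62 lie close to the diagonal, and C13 shows more genes away from it.

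Most morning genes of the clock that were called were lower at 2 h. CCA1, the dawn repressor, was at -3.60 in WT, -3.08 in C13 and -3.40 in Mt62 (SE at most 0.26 on average). The LNK genes, coactivators that are induced by light and work with RVE8, were lower by a similar amount. LNK3 was at -3.35, -3.84 and -4.16, LNK2 at -2.88, -3.15 and -3.30, and LNK4 at -2.61, -3.09 and -3.21 in WT, C13 and Mt62. All values of these 4 genes lay many standard error limits below 0, and the lines did not differ in direction. LNK1 had a value only in C13, at -2.10 (SE at most 0.20). From the limits on unlisted values, explained below, it was also lower in WT (-0.80 or beyond) and Mt62 (-1.10).

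Members of the REVEILLE family, MYB proteins related to CCA1, did not all move the same way. RVE7 was not called in WT (0.02) and was lower in C13 (-1.15) and Mt62 (-1.14), with SE of at most 0.23 on average. RVE6, an activator of evening genes, was called lower in C13 at -0.52. RVE2 was called higher in WT at 1.33 (SE at most 0.43), and from the limits it was higher by at least 1.64 in C13 and 2.31 in Mt62. Of the 12 measured morning genes 8 had a value in at least 1 line, 7 of them called lower and 1 higher. Of all 5705 genes with a value 22.1% were called in at least 1 line. In 5 of the 8 morning genes treated plants lay between both controls in at least 1 line, which fixes the call there. The median of the list was -2.74 in WT, -3.08 in C13 and -3.30 in Mt62.

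LHY, the partner of CCA1, shows what the selection leaves out. In the authors' deposited table treated WT plants stood at -3.34 (hypoxia) and -3.98 (DETA) against the 0 h control, and no value against the 2 h control was listed. An unlisted value lies within the row's smallest listed value, so the controls of WT differed by -2.55 or more in size and those of Mt62 by -2.02 or more in size. In C13 the same limits gave no call, with treated plants at -2.42 and -2.30. Of the genes with no value, such limits called 1.96% higher and 1.9% lower in WT. The shares were 1.58% and 1.8% for C13, and 1.62% and 1.67% for Mt62. RVE1, which promotes auxin synthesis and leads from the clock to growth, was lower by the same reasoning in all lines, at -1.37 or beyond in WT, -1.33 in C13 and -1.23 in Mt62.

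The PRR genes split by their order in the day. PRR9, the earliest, was lower in WT at -1.36 (SE at most 0.19), and at or beyond -1.21 in C13 and -1.51 in Mt62 from the limits. PRR7 had a value only in C13, where it was not called (-0.26, SE at most 0.30). From the limits its change lay from 0.47 to 1.72 in WT and from 0.10 to 1.59 in Mt62, above 0 but not called. PRR5 was called higher in C13 at 1.96 (SE at most 0.32), and at or beyond 2.29 in WT and 2.76 in Mt62. PRR3 was at 3.85, 3.64 and 4.04 in WT, C13 and Mt62, with SE of at most 0.32 on average. TOC1, the last of the series, was at 2.85 in WT and 3.16 in Mt62, and at or beyond 1.38 in C13. PRR9 was thus lower, PRR7 was called in no line and differed in sign between lines, and PRR5, PRR3 and TOC1 were higher. In PRR9, PRR3 and TOC1 treated plants lay between both controls in at least 1 line, which fixes the call there.

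The evening genes were higher. Of 11 measured members 4 had a value in WT, 5 in C13 and 6 in Mt62, and each of these was called higher; in 6 of the 7 genes treated plants lay between both controls in at least 1 line, which fixes the call there. ELF3, the scaffold of the evening complex, was at 2.24, 2.46 and 2.56 in WT, C13 and Mt62 (SE at most 0.15 on average). LUX, its DNA-binding subunit, was at 2.97, 3.12 and 3.33 (SE at most 0.28). ELF4, the small subunit, was at 4.05 in C13 and 4.80 in Mt62. In WT it was at or beyond 1.81 in 1 of its 2 rows, and the other row gave no call.

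COR27 and COR28, cold-induced genes that feed back on the clock, had the largest changes of the list. COR27 was at 4.48 in WT, 5.22 in C13 and 5.28 in Mt62 (SE at most 0.57 on average), the highest mean of all genes called in 3 lines. COR28 was at 4.18 in WT and 4.94 in Mt62, and at or beyond 2.36 in C13. GI, which stabilises clock proteins and promotes flowering, was at 1.09 in C13 (SE at most 0.24) and at or beyond 1.82 in WT and 1.91 in Mt62. FKF1, a blue-light receptor that works with GI, was at 2.26 in Mt62 and at or beyond 1.16 in WT and 0.98 in C13.

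**Figure D2:**
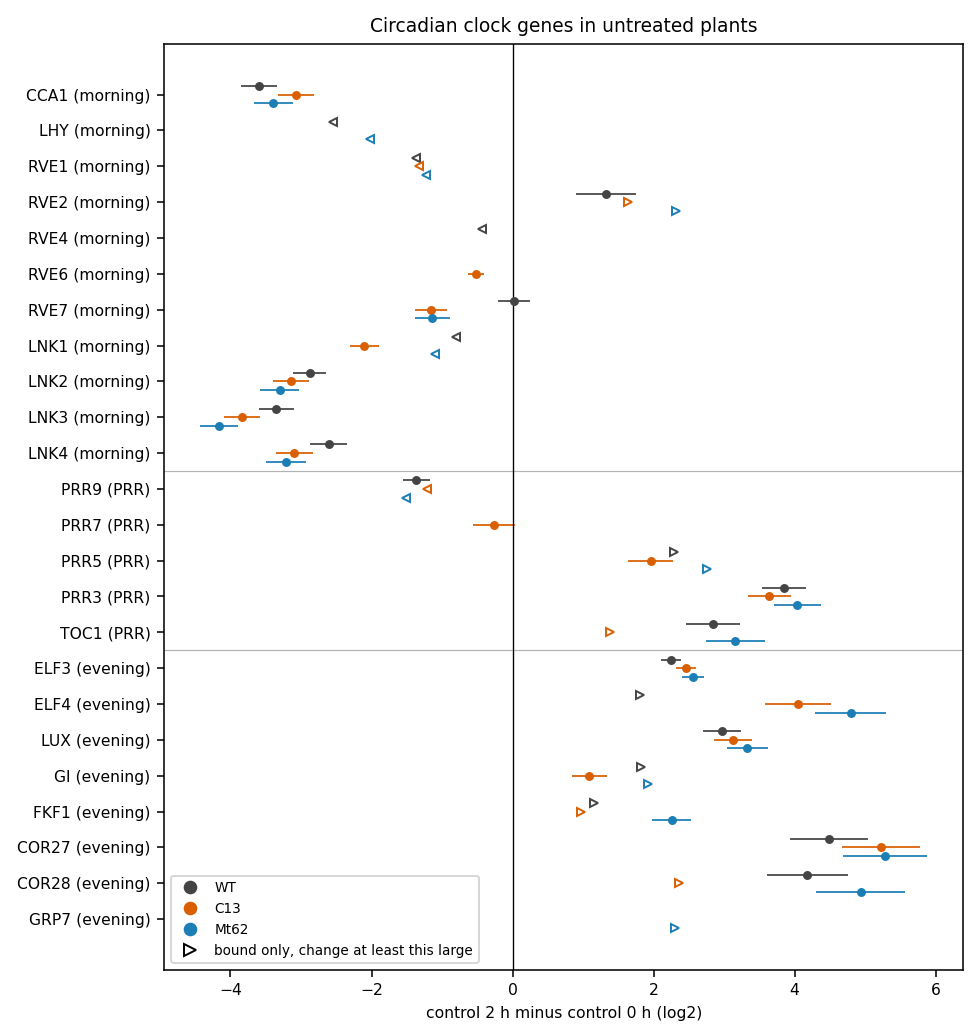
Change of clock genes in untreated plants from 0 h to 2 h (log2 scale on the horizontal axis) in WT, C13 and Mt62. Dots are values with bars for the upper limit of the standard error. Open triangles mark genes with no value whose change is at least as large as shown, for ELF4 in WT in 1 of its 2 rows. Most morning genes lie left of 0 and all evening genes shown lie right of it, while the PRR genes go from PRR9 at -1.36 in WT to PRR3 at 3.85.

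Genes close to the clock were called in both directions. Of the 14 measured genes of the CONSTANS-like, B-box and CYCLING DOF FACTOR families, 12 had a value and 9 were called lower and 3 higher, in at least 1 line. Over all genes with a value this share was 22.1%. In 9 of the 12 treated plants lay between both controls in at least 1 line, which fixes the call there. COL1 was at -2.78, -2.98 and -3.21 in WT, C13 and Mt62, and COL2 at -3.41 in WT and -4.02 in Mt62. BBX25, a B-box protein that interferes with HY5, was at -2.18, -2.71 and -2.94. CDF3, a repressor of CONSTANS, was at -2.68 in C13 and -1.98 in Mt62. COL9 rose, to 3.65 in C13 and 3.58 in Mt62, as did AT1G07050, of the CCT domain family, to 3.96 and 4.14. The median of the list was -1.83, -1.50 and -1.71 in WT, C13 and Mt62.

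Among the 15 genes with the highest mean over the lines, clock genes stood beside genes of other functions. AT4G30650 and AT4G30660, neighbours of the low temperature and salt responsive family, were at 4.92, 4.37 and 5.59 and at 3.47, 2.25 and 3.31 in WT, C13 and Mt62. AT5G23240, a DnaJ-domain protein, was at 4.65, 4.64 and 5.21. THIC, which makes the pyrimidine part of thiamine in plastids, was at 2.20, 2.76 and 2.34 (SE at most 0.30). AT2G38465, AT5G62360, AT1G21680, AT1G26665, AT4G32340 and AT1G69890 had means between 2.08 and 3.36. AT5G62360 was at 2.66, 2.44 and 3.11 (SE at most 0.53), and its DETA plants lay outside both controls in all lines. Its hypoxic plants had no listed value against the 2 h control. They stood at 1.43, 1.84 and 2.02 against the 0 h control, between both controls.

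On the lower side NDA1, an NAD(P)H dehydrogenase on the inner face of the inner mitochondrial membrane, was at -3.44, -3.38 and -3.69 in WT, C13 and Mt62 (SE at most 0.24). SAG29, a sugar transporter of the SWEET family, was at -2.67, -2.68 and -2.33. PPT2, a phosphoenolpyruvate transporter of the plastid envelope, was at -2.07, -2.59 and -2.60. JAC1, needed for chloroplasts to gather in weak light, was at -1.82, -2.54 and -2.22. CYP71B2, a cytochrome P450, was at -1.73, -2.56 and -2.17. AT3G56290 and AT1G55960 had means of -2.71 and -2.64. In AT3G56290 and in HYH hypoxic plants lay outside both controls in all lines. DETA plants, with no listed value against the 2 h control, lay between both. Against the 0 h control they stood at -1.91, -1.55 and -1.58 (AT3G56290) and at -1.78, -1.42 and -1.53 (HYH) in WT, C13 and Mt62.

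Genes of starch turnover, most of which break down leaf starch at night, were higher wherever a value was called. Of 17 measured members 10 had a value in WT, 7 in C13 and 10 in Mt62, and 7, 4 and 8 of these were called higher and none lower; in each of the called ones treated plants lay between both controls. In at least 1 line 10 of 14 members with a value were called, beside 22.1% of all genes with a value. The medians of the list were 2.04, 0.94 and 2.22 in WT, C13 and Mt62. GWD1 and PWD, the dikinases that phosphorylate starch before its breakdown, were at 2.97 and 1.92 in WT and at 2.92 and 2.17 in Mt62. SEX4, the phosphatase that removes these phosphates, was at 2.47, 1.69 and 2.34 in WT, C13 and Mt62 (SE at most 0.26). PHS2, the cytosolic phosphorylase, was at 3.00 in WT and 3.05 in Mt62. ISA3, a debranching enzyme, was at 2.79 in Mt62, and AMY3, a plastid amylase, at 2.32 in WT. BAM1, a beta-amylase, had no value and was lower by the limits in all lines, at -0.92 or beyond in WT, -0.90 in C13 and -1.60 in Mt62.

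Light-signalling genes were mostly lower or not called. Of 21 measured members 16 had a value, 9 were called lower in at least 1 line, 1 higher and 6 in neither direction. Over all genes with a value 22.1% were called in at least 1 line. In 2 of the 16, SPA4 and SPA1, treated plants lay between both controls in at least 1 line, which fixes the call there. HYH, the partner of the light-response factor HY5, was at -2.50, -1.77 and -2.06 in WT, C13 and Mt62 (SE at most 0.38). HY5 itself was not called, at -0.34, -0.95 and -1.35 with an SE of at most 0.63. SPA4 and SPA1, parts of the complex that degrades HY5 in the dark, were lower, SPA4 at -0.89, -0.86 and -0.74 and SPA1 at -0.68 in WT and -1.81 in C13. PIF5, a growth-promoting bHLH factor, was at -0.77 in WT and -0.87 in Mt62. ELIP1, an early light-induced chloroplast protein, was called lower in C13 at -1.10. From the limits it was also lower in WT (-1.37 or beyond) and Mt62 (-1.22). CRY2, a blue-light receptor, was the higher one, at 0.57, 0.46 and 0.58.

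In chlorophyll synthesis 3 of 10 measured members had a value and each was called lower in at least 1 line. In 2 of the 3 treated plants lay between both controls in at least 1 line, which fixes the call there. Over all genes with a value 22.1% were called in at least 1 line. PORB, a protochlorophyllide oxidoreductase with no value, has 2 rows. In 1 of them it was higher from the limits on unlisted values, by at least 1.13 in WT and 1.51 in Mt62. The other row gave no call. HEMA1, the first committed enzyme of the pathway, was at -1.95 in Mt62, and GUN4, which activates magnesium chelatase, at -1.57 in C13 and -1.74 in Mt62. CHLM was called lower in Mt62 (-0.75) and not in WT (-0.07) or C13 (-0.45). In the flavonoid pathway 9 of 19 had a value, 6 of which were called lower and none higher, beside the same 22.1%. In 1 of the 9, PAL1, treated plants lay between both controls, which fixes the call there. UGT78D2, a flavonoid glucosyltransferase, was at -1.47, -1.15 and -1.30 in WT, C13 and Mt62 (SE at most 0.15). PAL1, the entry enzyme of phenylpropanoids, was at -1.37 in WT and F3H at -1.59 in C13. CHS, the first enzyme of the branch, was not called in C13 (-0.85, SE at most 0.36). Genes of the photosynthetic apparatus gave 1 value among 21 measured members, LHCB4.3 in C13, which was not called (0.39); from the limits it was lower in WT, at -0.56 or beyond.

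The auxin and growth genes that were called were all lower. Of 27 measured members 14, 13 and 15 had a value in WT, C13 and Mt62, and 1, 7 and 5 were called lower and none higher. From the limits on unlisted values, a further 2, 2 and 1 were lower. Whether the lines differ in these counts was not tested. In at least 1 line 8 of 18 members with a value were called, beside 22.1% of all genes with a value. In 5 of the 18 treated plants lay between both controls in at least 1 line, which fixes the call there. By line this held for 1, 4 and 2 genes in WT, C13 and Mt62. IAA17, an auxin-response repressor, was lower in each line, at -1.38, -1.63 and -1.68 (SE at most 0.15). IAA19 was at -1.16 in C13 and -1.33 in Mt62, and GA3OX1, which makes active gibberellin, at -1.39 and -1.21. From the limits both were also lower in WT, IAA19 at -0.60 or beyond and GA3OX1 at -0.75 or beyond. PRE1, a growth-promoting bHLH protein, was at -2.42 in C13, and from the limits at -1.08 or beyond in Mt62. EXPA8, an expansin that loosens cell walls, was called in C13 (-1.85) and not in WT (-0.28) or Mt62 (-0.72).

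In the cold and abscisic acid list 17 of 27 had a value, 3 called higher, 3 lower and 11 neither. Over all genes with a value 22.1% were called in at least 1 line. In 4 of the 17, among them all 3 called higher, treated plants lay between both controls in at least 1 line, which fixes the call there. COR15B, a chloroplast protein made in the cold, was at 4.35 in Mt62 and COR413-PM1 at 1.94. COR15A was not called in WT at 1.14 (SE at most 0.47). From the limits COR414-TM1, a cold-induced chloroplast membrane protein with no value, was higher by at least 1.93, 1.34 and 1.26 in WT, C13 and Mt62. COR15B (at least 1.95) and COR413-PM1 (at least 0.87) were higher in WT by the same reasoning, and COR15A in Mt62 (at least 1.58). HAB1, a phosphatase that silences abscisic acid signalling, was lower at -1.42, -1.03 and -1.38 in WT, C13 and Mt62, and ABF3, a factor that carries the same signal, at -0.97 in WT and -0.96 in C13. Of 16 sugar starvation genes 14 had a value and 11 were called in no line. STP1, a monosaccharide importer, was higher at 0.74, 1.25 and 1.03, and BT2 was called in C13 (1.63) and Mt62 (1.81) and not in WT (1.05, SE at most 0.42 on average). ASN1, MIOX2, DIN10 and SEN1, typical starvation genes, were called in none. DRM1, with no value, was higher from the limits in 1 of its 2 rows, by at least 1.56, 1.69 and 1.88.

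Over all 5705 genes with a value, 22.1% were called in at least 1 line. Of 15 genes of the core hypoxia response 14 had a value, and PDC2, a pyruvate decarboxylase, was the only one called, in WT at 1.48, with 1.21 in Mt62 and 0.59 in C13 not called. ADH1, alcohol dehydrogenase, was at -0.22, -0.34 and -0.37 in WT, C13 and Mt62, with an SE of at most 1.27, a loose limit since its listed values are all large. In the jasmonate list JAZ9 was the only one of 17 genes called, at -0.79 in WT and -0.95 in Mt62. Of 9 touch and early stress genes with a value MKK9 was called, in C13 at 0.82, where TCH3 (at least 1.02) and MPK3 (at least 0.40) were higher from the limits. Of 9 nitrogen genes with a value 3 were called. BT1 was called higher in C13 (1.02), and NIA2, a nitrate reductase (-0.73), and ASN2 (-0.75) lower in Mt62. From the limits NIR1, a nitrite reductase, was lower in WT (-1.18 or beyond) and Mt62 (-1.22), and HB2 higher in WT (at least 0.81). In the glucosinolate and sulfate list 5 of 13 had a value and 2 were called. APR2 was called lower in WT (-2.12) and APR1 in Mt62 (-0.80), both enzymes of sulfate reduction, and from the limits APR2 was lower in Mt62 (-0.90 or beyond) and MYB29 in C13 (-0.71). Under the Benjamini-Hochberg adjusted p from the standard error limit the calls of PDC2, JAZ9, MKK9, BT1, ASN2 and APR1 were lost. So were those of RVE2, ELIP1, PIF5, ABF3 and CHLM, of STP1 and SPA1 in WT, and of HSP70-4 in C13. That adjustment counted all 34558 rows, also those with no value, and is stricter than one over the rows with a value alone. Whether these calls would be lost under the latter was not tested.

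Of 23 heat shock genes 10 had a value and HSP70-4, a cytosolic chaperone, was the only one called from a value. It was at -4.14 in WT, -1.30 in C13 and -3.42 in Mt62 (SE at most 0.38 on average). In C13 the other 9 were between -0.70 and 0.67, but WT had a value for 1 gene of the list and Mt62 for 2. From the limits ROF2 (-2.32 or beyond), HSP90.1 (-1.35), MBF1C (-1.31) and ROF1 (-0.70) were lower in WT, and MBF1C also in Mt62 (-1.23). Root markers, which a shoot sample should hold little of, gave values for AKT1 and SHR alone, between -0.13 and 0.28, and none of the 10 measured was called; with no levels in the table, the organ could not be checked further.

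**Figure D3:**
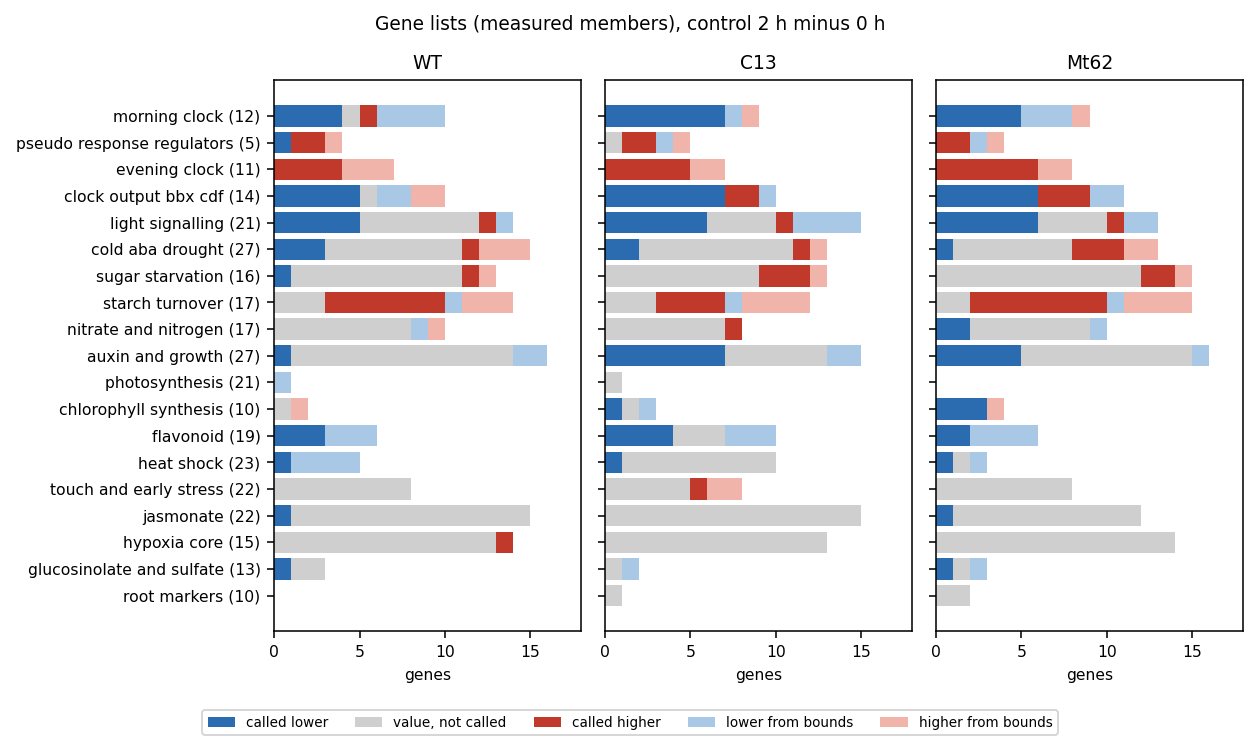
Number of genes per list called lower, not called or called higher at 2 h against 0 h in WT, C13 and Mt62, with the measured members in parentheses. Pale segments are genes with no value whose direction follows from the limits on unlisted values. Called evening clock and starch genes mostly fall on the higher side and morning clock genes on the lower side, with BAM1 lower and RVE2 higher in each line as exceptions, while the hypoxia and jasmonate lists are almost entirely grey.

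The 24 h controls were set beside the 2 h controls. Both are measured against the same 0 h plants and are given only side by side. At 24 h, 7.6% of genes with a value were called higher and 7.14% lower in WT, with 4.87% and 5.08% for C13 and 6.24% and 4.49% for Mt62. CCA1 was at -2.55, -2.61 and -2.40 at 24 h in WT, C13 and Mt62, against -3.60, -3.08 and -3.40 at 2 h. LNK2 was at -1.72, -1.90 and -1.99 at 24 h. LUX was at 1.73 in WT and 2.01 in Mt62 at 24 h, against 2.97 and 3.33 at 2 h. COR27 was at 1.50, 3.65 and 2.68 at 24 h, below its values at 2 h in each line. AT4G30660 was at 3.31, 2.11 and 3.41 at 24 h, near its values at 2 h, and SEX4 at 1.97, 1.42 and 1.90. Not all calls recurred. Of genes called higher at 2 h and with a 24 h value, 132 of 169 in WT were called higher at 24 h. In C13 it was 93 of 162 and in Mt62 134 of 176. For genes called lower the counts were 115 of 175, 120 of 209 and 92 of 175 in WT, C13 and Mt62.

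**Figure D4:**
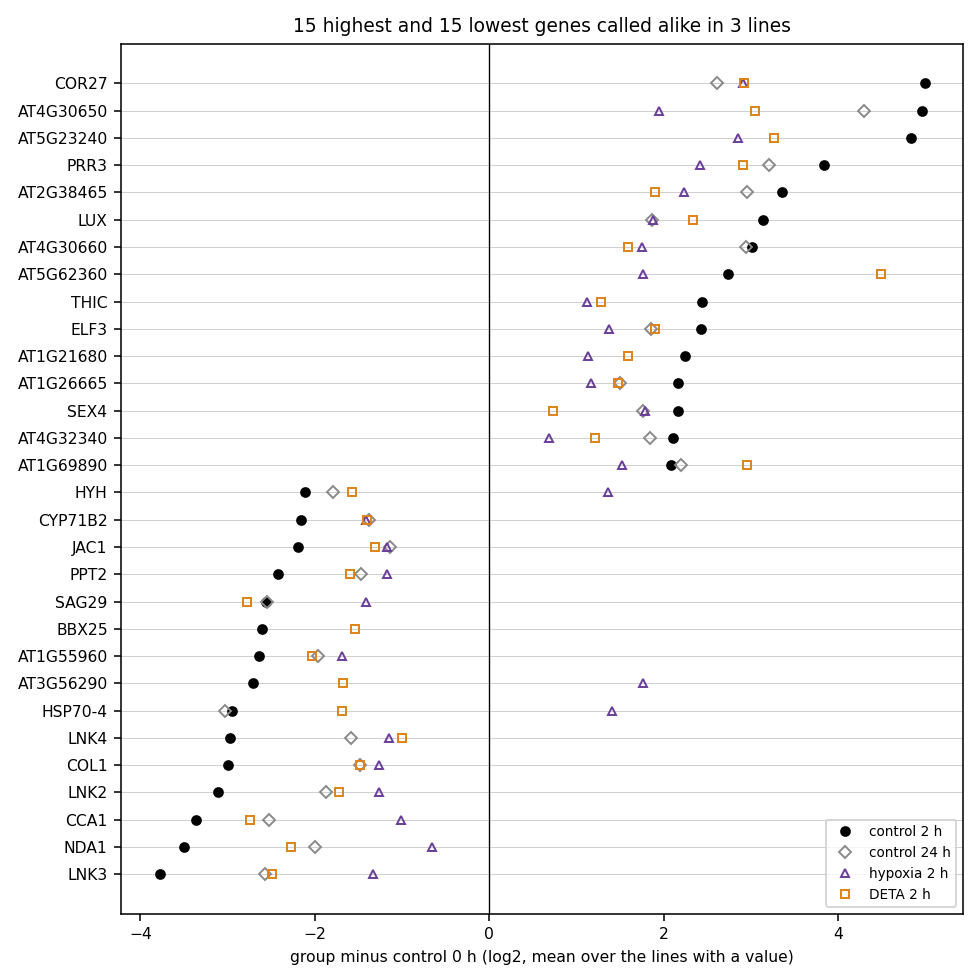
The 15 highest and 15 lowest genes called alike in the 3 lines, as the difference of each group from the 0 h control (log2, mean over the lines with a value, so symbols of 1 gene can rest on different lines). In most of these genes treated plants of 2 h stood on the same side of 0 as the 2 h control and nearer to 0, and the 24 h control stood on the same side.

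The change of each transgenic line was tested against that of WT. For C13, 51 of 2360 genes changed more upwards than in WT (2.16%) and 68 more downwards (2.88%). For Mt62, 6 of 2442 genes did so upwards (0.246%) and 7 downwards (0.287%). The difference of changes holds the difference between the lines at 0 h with its sign turned, and 47 of the 119 genes called for C13 had a listed difference from WT at 0 h (39.5%, against 5.04% of all tested), all 47 of opposite sign. For Mt62 this held for 7 of 13. With a Benjamini-Hochberg adjusted p, from the standard error limit and a t distribution, 14 genes were called for C13 and 0 for Mt62. PRODH1, EXO, THE1 and IAA29 below are among those that lost the call, and so are all genes named for Mt62. As above, this adjustment counted all 34558 rows, also those with no value, and is stricter than one over the rows with a value alone.

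HSP70-4 fell less in C13 than in WT, by 2.84 (SE at most 0.53), and the authors' deposited table gives -1.89 for C13 against WT at 0 h. The difference computed at 2 h was 0.96. PRODH1, the proline dehydrogenase that is a marker of low sugar, was at 1.32 in C13, -1.06 in WT and -0.81 in Mt62. EXO, a cell wall protein linked to growth, was at 1.32, -0.78 and 0.85 in C13, WT and Mt62. THE1, a receptor kinase that senses cell wall state, was at 1.19, -0.31 and 0.34, and MES16, a methylesterase, at 0.47, -0.87 and -0.41.

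In the other direction CIPK20, a kinase of calcium signalling, was at -3.69 in C13 and -0.38 in WT, a difference of -3.31 (SE at most 0.53). IAA29, an auxin-response repressor, was at -2.23 in C13, 0.05 in WT and -0.47 in Mt62. AT1G70420 was at -0.02 in C13 and 2.38 in WT, AT5G03230 at -1.77 and 0.10, and AT1G28610 at 0.13 and 1.88. The authors' deposited table lists C13 above WT at 0 h for CIPK20 (1.40), AT1G70420 (0.98), IAA29 (1.07) and AT1G28610 (0.86). For AT5G03230, EXO and THE1 no 0 h difference was listed.

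The genes that set Mt62 apart from WT moved by less. RVE7 was the largest, at -1.14 in Mt62 and 0.02 in WT, a difference of -1.16 (SE at most 0.33), with C13 at -1.15. AT1G73750, AT2G21560, AT4G29110 and AT1G66330 had differences from -0.68 to -0.95, and AT3G10185, AT2G44300, SPL2, AT1G03106 and AT5G62140 from 0.72 to 0.83. SPL2, a factor of leaf and flower development, was at 0.21 in Mt62, -0.53 in WT and 0.40 in C13.

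**Figure D5:**
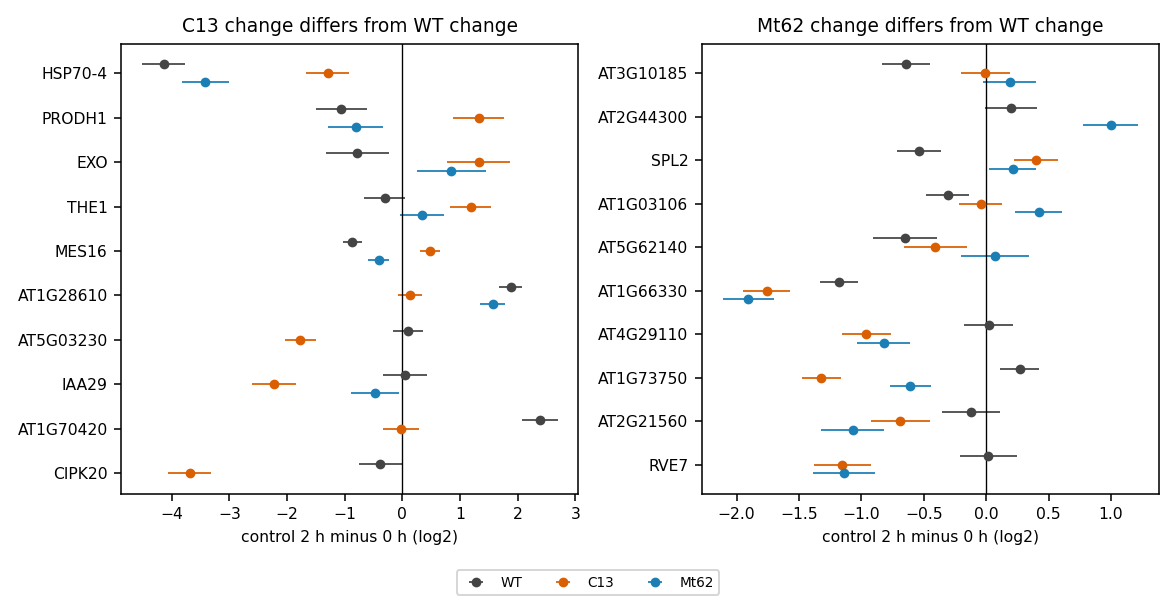
Change from 0 h to 2 h (log2) in WT, C13 and Mt62 for the 10 genes whose change in C13 (left) or in Mt62 (right) differed most from WT in either direction. Bars are upper limits of the standard error, and a missing dot means no value in that line. In HSP70-4 the dot of C13 at -1.30 stands apart from -4.14 in WT and -3.42 in Mt62.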

How the data were processed

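Per the series design text, the authors quantile-normalised the array intensities, corrected batches with a modified ComBat and tested with an empirical Bayes t-test. The deposited log2 values (base assumed) are fold changes between groups of biological replicates; whether these came from separate cultures is not given. Values with p above 0.01 are null. The table has 34558 rows and 34 columns, with 137440 listed values. Rows were named through accessions of the TAIR10.1 annotation (24525), loci or symbols (1822) or as given (19); 8192 have no gene. A gene's value is the mean of its rows, and it was called where at least 1 row was called and all rows agreed in sign. Standard error limits average over rows. For a gene with no value and several rows, the limit given is the weakest among its called rows, and uncalled rows are left out. Computation used Python 3.11.15 and pandas 2.3.3; the call rule was tested on simulated tables. Signal over background is not in the table.

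Members, 19 lists and tests were chosen with earlier results of these data known. Named are the 15 highest and 15 lowest genes called in 3 lines, all clock members with a value, up to 6 members per list and 5 per side for line differences. LHY, RVE1, BAM1, CRY2, CHLM, AT4G29950, genes named from limits on unlisted values, and single called members of small counts were named after their values were seen.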

Additional observations from a re-analysis of the deposited data

Results flagged for a closer look

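The change from 0 h to 2 h differed between C13 and WT, by the test of the difference itself, in the following named genes, as C13 change minus WT change on the log2 scale. It was higher in C13 for HSP70-4 (2.84), PRODH1 (2.38), EXO (2.10), THE1 (1.49) and MES16 (1.34). It was lower in C13 for CIPK20 (-3.31), AT1G70420 (-2.41), IAA29 (-2.28), AT5G03230 (-1.87) and AT1G28610 (-1.74). For Mt62 against WT it was higher for AT3G10185 (0.83), AT2G44300 (0.80), SPL2 (0.75), AT1G03106 (0.73) and AT5G62140 (0.72). It was lower in Mt62 for RVE7 (-1.16), AT2G21560 (-0.95), AT1G73750 (-0.88), AT4G29110 (-0.84) and AT1G66330 (-0.68). The WT controls of 0 h and 2 h enter both sets. With a Benjamini-Hochberg adjusted p from the standard error limit, counted over all 34558 rows, 14 genes were called for C13 and 0 for Mt62. PRODH1, EXO, THE1 and IAA29 then lost the call, as did all genes named for Mt62.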

How the results depend on the processing

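No paired analysis was possible because the deposited table holds no value per channel, and no replicate could be left out for the same reason. Most counts stayed within 1.5 times the reported ones (664, 630 and 626 genes called in WT, C13 and Mt62, 172 in all 3 lines, 119 for C13 against WT and 13 for Mt62 against WT). With hypoxia columns only, 111 genes were called in all lines and 63 for C13 against WT. With DETA columns only, the counts were 333, 260 and 302 in the lines, 60 in all lines, 36 and 3 against WT; fewer rows have a value in both settings. With an adjusted p from the standard error limit (t distribution with 60 degrees of freedom, Benjamini-Hochberg at 0.05), 391 genes were called in C13, and 14 and 0 against WT. That adjustment counted all 34558 rows, also those with no value, and an adjustment over the rows with a value alone was not made. With an absolute log2 difference of at least 1, the counts were 335, 279 and 315, 100 in all lines and 79 for C13 against WT. With calls from limits added after the data were seen, they were 1161, 1054 and 1048, and 526 in all lines. Of 2287 repeats for the named genes 60 lost the call, 5 gained one and none changed direction. Other channel numbers for C13 hypoxia 2 h and Mt62 hypoxia 24 h gave 657, 623 and 623. Because rows without a value are left out, no statement covers the 8085 genes never listed.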

Other observations

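Some genes with no value in any line could still be called from the limits on unlisted values; this was added after the data were seen. In all 3 lines 50 were higher and 42 lower by this reasoning. SIGE, a sigma factor of plastid RNA polymerase, was at -2.36 or beyond in WT, -2.28 or beyond in C13 and -2.85 or beyond in Mt62. AFR, an F-box protein of phytochrome A signalling, had bounds of -2.05, -1.65 and -1.63, and AT2G15020 of -2.50, -1.80 and -2.61. On the higher side stood AT5G14920 with at least 2.38, 1.60 and 1.95, and BT4, a BTB protein, with at least 1.57, 1.82 and 2.08. CIPK21, a kinase of calcium signalling, was higher by at least 1.73, 1.74 and 1.92. DRM1, a dormancy-associated gene, was higher by at least 1.56, 1.69 and 1.88 in 1 of its 2 rows.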
